A study of Sus scrofa with 10 samples.

Results

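The members are the genes of transforming growth factor beta (TGF-beta) and bone morphogenetic protein (BMP) signalling, followed in ovaries of gilts with and without an injection of recombinant pig follicle-stimulating hormone (rpFSH). They were chosen by annotation alone, as the protein-coding loci to which the deposited table assigns the KEGG TGF-beta signaling pathway. Loci that also carry the KEGG cell cycle pathway (17 loci) and the inhibin, activin and follistatin genes (3 loci) were left out. This gave 69 of 43499 loci, or 69 of the 19972 protein-coding ones. RNA of 10 ovaries was sequenced with 1 library per pig, 5 from the control group and 5 from the rpFSH treatment group. All 10 gilts shared their birth day and genetic background and had been fed 20 mg altrenogest, a progestin that holds back oestrus, daily over 18 days starting at 210 days of age. After 2 days without altrenogest each gilt of the rpFSH treatment group was injected with 1000 IU rpFSH, while controls were given the same volume of saline, and the age at ovary collection was 234 days. The labels write the treatment as "fpFSH" or "untreated", and the methods state that rpFSH was made in CHO cells, a hamster cell line used to produce proteins. Surface follicles had been removed before sampling, so the libraries cover the ovary that remained.

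TGF-beta, activin and BMP ligands are secreted dimers that bring together type II and type I serine/threonine kinase receptors, and the type I receptor then phosphorylates receptor SMADs. TGF-beta and activin signal mainly through SMAD2 and SMAD3, whereas BMPs and anti-Müllerian hormone (AMH) signal through SMAD1, SMAD5 and SMAD9, and both kinds of SMAD enter the nucleus with SMAD4. In the ovary these ligands pass between oocyte, granulosa and theca cells, and BMP receptors and AMH are known for setting how readily follicles are recruited and respond to FSH.

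The deposited table gives for each locus and pig a whole-number count and an FPKM, the fragments scaled by the assembled length of the locus and by the mapped fragments of the library. The library totals ran from 64873797 to 75114003 counts. Defining markers of the ovary were detected in all 10 pigs, with the FSH receptor FSHR between 0.375 and 7.02 FPKM and the oocyte gene GDF9 between 2.36 and 4.92 FPKM, whereas the oocyte marker FIGLA had 0 counts in control pigs 1, 2 and 5 and rpFSH pigs 1 and 4. The granulosa marker FOXL2, the luteal marker HSD3B1 and the oocyte marker DAZL could not be matched to a protein-coding locus. Some libraries stood apart in their marker levels. The summed FPKM of 5 luteal markers was 2724 in control pig 2 and 1422 in rpFSH pig 1, 349 in rpFSH pig 4 and between 17.5 and 62.5 in the others. Summed smooth muscle markers (4 genes) reached 1209.8 in control pig 5, against 49.7 to 337 in the others. Of 8 markers of ciliated epithelium, 6 were lower in the rpFSH treatment group at an unadjusted P under 0.05 in edgeR. Over all tested loci that share was 3.21%. In the exact permutation tests described below, the p of these 6 lay between 0.0794 and 0.286, and after adjustment over all tested loci 0 passed. The sums of all 8 were 25.7 and 52.0 in control pigs 2 and 5. They were 3.08 to 4.20 in the other control pigs and 2.14 to 4.13 in the rpFSH pigs. FOXJ1, which defines that cell type, had 0 counts in rpFSH pigs 1 and 5. What part such cells had in the members' values was not tested. In bulk ovary, fewer cells of a type and less RNA per cell cannot be told apart.

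Of the 69 members, 58 reached a mean of 0.1 FPKM over the 10 pigs and were tested, and 11 did not. Together the 69 members held 0.451% to 0.587% of the counts of the control pigs and 0.536% to 0.735% of those of the rpFSH pigs. These shares lean on a few loci, since THBS1 held 803371 and DCN 546425 of the 4161518 member counts over all pigs. The matrix proteins stood highest per assembled length, with thrombospondin 1 (THBS1) at 168 FPKM, decorin (DCN) at 128 and LTBP1 at 40.7, as means over all pigs. The receptor TGFBR2 (34.0), the phosphatase subunit PPP2R1A (29.7) and the target ID3 (24.2) followed. The lowest tested members were HJV at 0.110 and GREM1 at 0.152 FPKM. The assembled length enters each FPKM, so that an order of levels between genes depends on it. As implied by the counts and FPKM, this length ran up to 62641 bp for BMPR1B. Such implied lengths are approximate, since those of ID1, ID2, ID3 and ID4 exceeded the span of the locus, with 6176 against 5481 bp for ID1. In 10 members the assembly joined at least 2 named genes into a single locus, among them LTBP1, NBL1, SMURF2, INHBE (joined with GLI1), AMH (with SF3A2), MAPK3 (with GDPD3), RHOA (with USP4), TGIF2 (with its TGIF2-RAB5IF readthrough gene) and HAMP (with LSR and USF2), and such a value holds all joined genes.

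**Figure D1:**
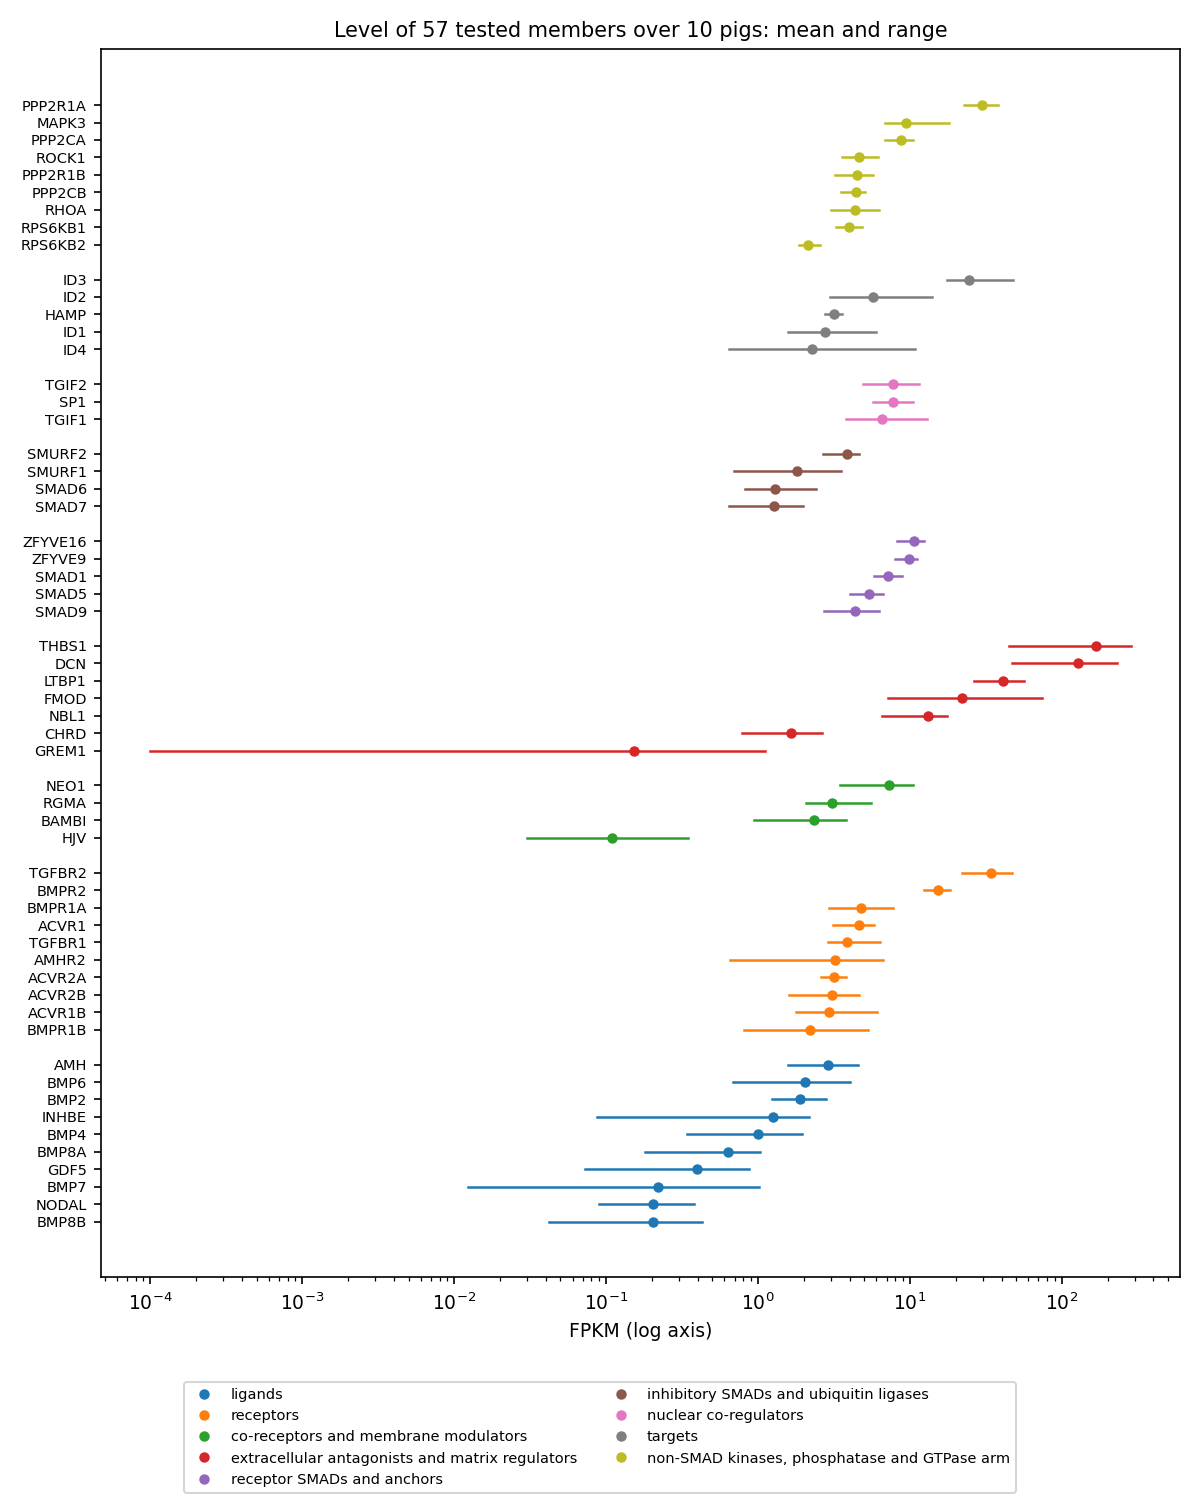
Mean FPKM over 10 pigs (points, log axis) with the lowest and the highest pig (lines) for 57 of the 58 tested members, grouped and coloured by role. THBS1 and DCN stand at the top with means of 168 and 128 FPKM, and the 10 tested ligands sit low, with means of at most 2.90.

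Between the groups, 3 members were higher in the rpFSH treatment group at an unadjusted P under 0.05 in edgeR's quasi-likelihood test, and 0 were lower. The exact permutation tests given beside edgeR's P are two-sided tests of log2 CPM (counts scaled to the TMM library size), and the smallest p that 252 assignments of the pigs allow is 0.00794. The 3 members were LTBP1, which tethers latent TGF-beta to the matrix, ID2, a transcriptional inhibitor and known BMP target, and ACVR1B, the type I activin receptor also called ALK4. These 3 of 58 make 5.17%, beside 4.73% of all 15170 tested protein-coding loci in either direction, 1.52% in the higher direction and 3.21% in the lower direction. The members' share in either direction was near the background, and their share in the higher direction rests on 3 loci. After Benjamini-Hochberg adjustment over all tested loci, 0 members had an adjusted p under 0.05 in edgeR, DESeq2 or limma, where 0.0%, 0.567% and 0.0% of all tested loci did. The smallest adjusted p of edgeR over the members was 0.981. An unadjusted P under 0.05 was reached by 5 members in DESeq2, where 6.04% of all tested loci reached it, and by 3 in limma on log2 (FPKM + 1), where 3.03% did. DESeq2 gave no P or adjusted p for GREM1 and ID4, which count here as not passing. The 5 of DESeq2 held THBS1 as higher and BMP7 as lower beside the 3 of edgeR, and the 3 of limma were LTBP1, ID2 and BMP8A. The rule used in the study, an unadjusted P under 0.05 with a log2 fold change above 1 or below -1, gave 0 members in either direction with edgeR, where it gave 0.534% of the tested loci as upregulated and 2.58% as downregulated. Since control pigs 2 and 5 stood apart, the counts were also made without them, where 7 of 58 members (12.1%) were higher and 0 lower, beside 4.54% and 2.29% of all tested loci. The added members were BMPR2, SMAD9, FMOD and ID4. In each of them the highest control was control pig 2 or control pig 5, so leaving out these pigs itself removes the highest control value. Without control pig 2 and rpFSH pig 1, the pigs with the highest luteal sums, 3 of 58 (5.17%) were higher and 0 lower, beside 2.63% and 2.52%, an alternative chosen after seeing the data. In 0 members did the 5 rpFSH pigs all lie above the 5 control pigs or all below them on the CPM scale, beside 0.264% and 0.303% of all tested loci.

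The fold changes of the members were small for most. The log2 fold change, taken as rpFSH over control, was above 0 in 40 of the 58 tested members, or 69.0%, and in 48.3% of all tested loci. With limma on log2 (FPKM + 1) the shares were 62.1% and 36.2%. The median log2 fold change in edgeR was 0.094 over the members and -0.0093 over all tested loci. By role, the medians were 0.15 for 10 tested ligands, 0.19 for 10 receptors, 0.21 for 4 co-receptors and membrane modulators and 0.10 for 7 extracellular antagonists and matrix regulators. Inside the cell they were 0.079 for 5 receptor SMADs and anchors, 0.13 for 4 inhibitory SMADs and ubiquitin ligases, 0.32 for 3 nuclear co-regulators, 0.38 for 5 targets and 0.040 for 10 members of the non-SMAD arm. The targets had the highest median and the non-SMAD arm the lowest, and no test was made between roles.

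**Figure D2:**
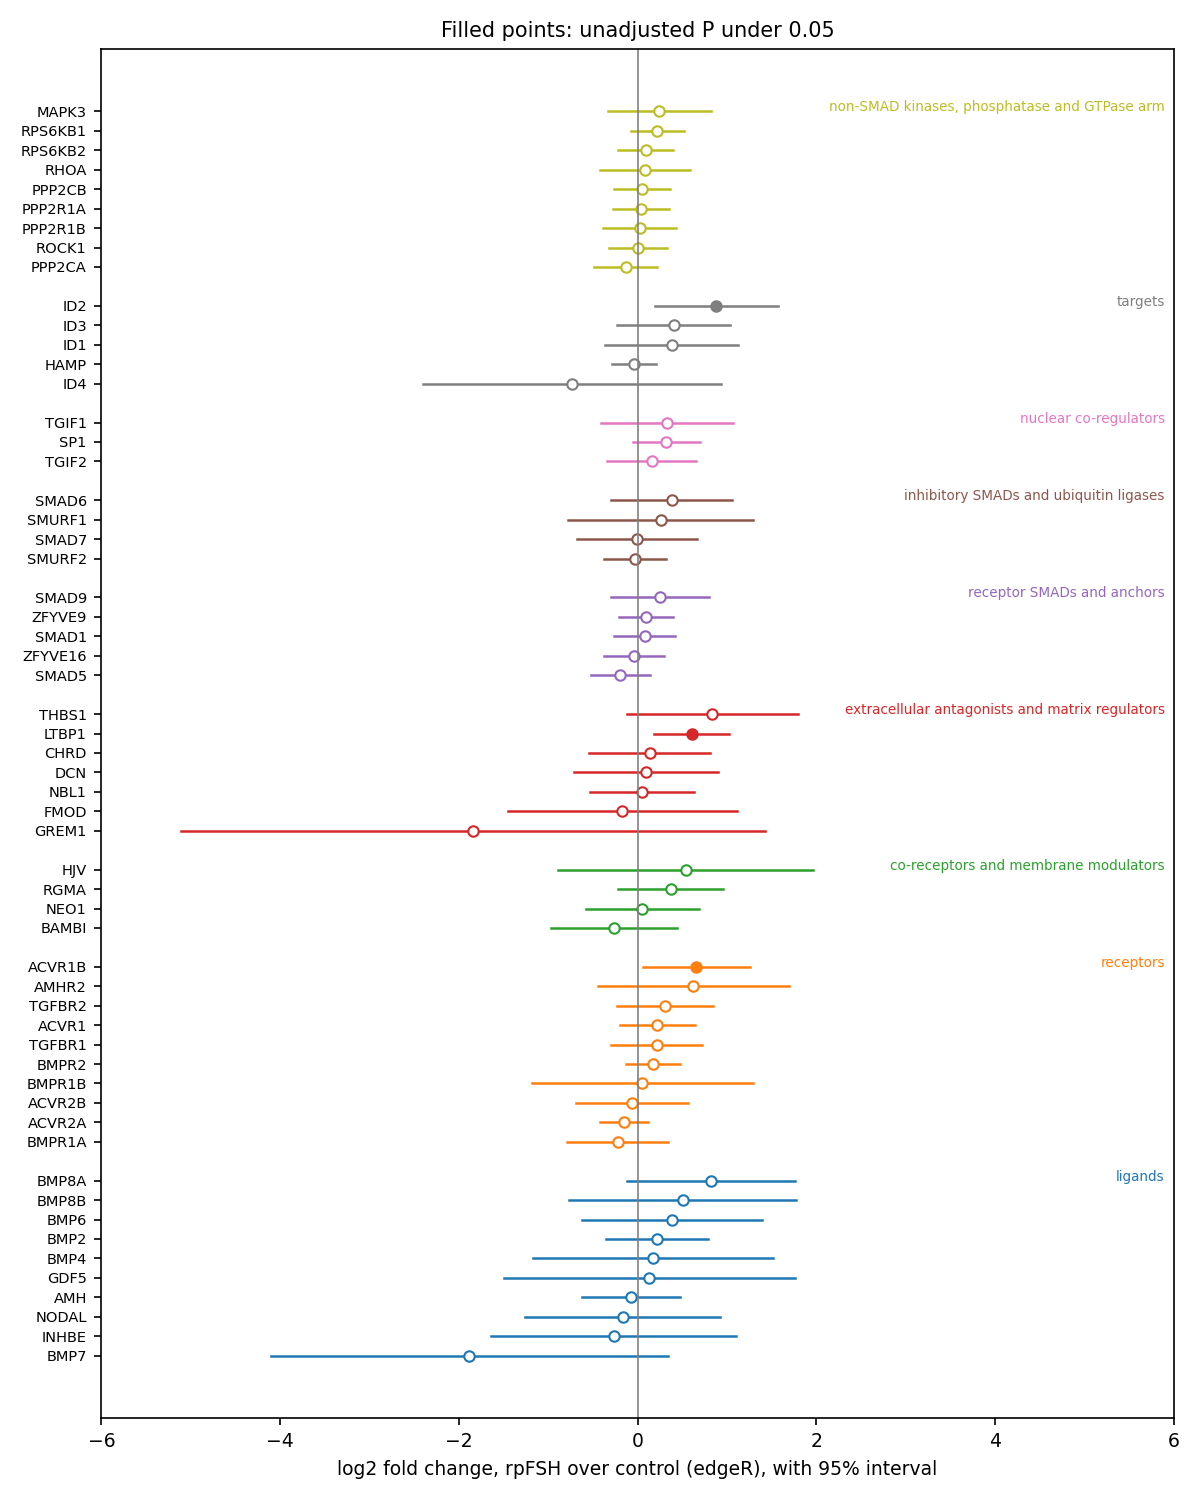
Log2 fold change of rpFSH over control (points, edgeR) with its 95% interval (lines) for 57 of the 58 tested members, grouped and coloured by role. The intervals of 3 members, LTBP1, ID2 and ACVR1B (filled points), do not reach 0, and the widest are those of GREM1, BMP7 and ID4.

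The ligands were low in the sampled ovary, and 0 of 10 tested ligands passed the test in either direction. AMH, the granulosa cell hormone that restrains follicle recruitment, lies on chromosome 2, 76404452 to 76419202, plus strand in the genome build Sscrofa11.1, within the locus shared with SF3A2. Its FPKM was 4.54, 1.58, 3.37, 3.15 and 2.58 in control pigs 1 to 5 and 3.10, 2.97, 2.55, 2.28 and 2.90 in rpFSH pigs 1 to 5. The highest and the lowest pig were both controls and all 5 rpFSH pigs lay between them, with a log2 fold change of -0.073 ± 0.25 (SE, edgeR P = 0.775, exact permutation p = 0.992).

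BMP2, a ligand produced by ovarian somatic cells (chromosome 17, 15749836 to 15761194, plus strand), was at 1.59, 1.23, 2.33, 1.91 and 1.83 FPKM in the control pigs and at 1.505, 1.33, 2.15, 2.81 and 2.10 in the rpFSH pigs. The groups overlapped, with rpFSH pig 4 the highest, and the log2 fold change was 0.22 ± 0.26 (edgeR P = 0.415, exact permutation p = 0.437). BMP4, known as a theca and stroma ligand (chromosome 1, 183413653 to 183422839, minus strand), was at 0.339, 0.480, 1.93, 0.510 and 1.59 FPKM in the control pigs and at 0.339, 1.32, 1.77, 1.29 and 0.441 in the rpFSH pigs. Each group held pigs with over 1 FPKM beside pigs with under 1, and the log2 fold change was 0.17 ± 0.61 (edgeR P = 0.781, exact permutation p = 0.889). BMP6, which is made by oocytes and granulosa cells (chromosome 7, 5058036 to 5211316, plus strand), was at 2.70, 1.55, 3.03, 0.681 and 0.996 FPKM in the control pigs and at 1.16, 2.08, 2.31, 4.02 and 1.70 in the rpFSH pigs. Its lowest pig was control pig 4 and its highest was rpFSH pig 4, with a log2 fold change of 0.39 ± 0.46 (edgeR P = 0.412, exact permutation p = 0.365).

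BMP7, a theca ligand in the ovary (chromosome 17, 57584952 to 57676359, minus strand), had the log2 fold change farthest from 0 of the 58 tested members. Its FPKM was 0.144, 0.444, 0.0138, 0.150 and 1.01 in the control pigs and 0.0123, 0.0508, 0.221, 0.126 and 0.0256 in the rpFSH pigs. Control pig 5 stood highest and control pig 2 next, and control pig 3 was as low as the lowest rpFSH pig. The log2 fold change was -1.88 ± 1.00 with a 95% interval from -4.10 to 0.34 (edgeR P = 0.0888, exact permutation p = 0.230). BMP7 passed the unadjusted threshold with DESeq2 (P of 0.0496) and in edgeR without control pig 3 or without rpFSH pig 3, with log2 fold changes of -2.19 and -2.59. Without control pigs 2 and 5, the pair with high cilium genes, the log2 fold change of BMP7 was -0.14 and did not pass it.

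The close paralogs BMP8A and BMP8B, whose reads the counting could split, were at 0.629 and 0.202 FPKM on average, and BMP8B had a log2 fold change of 0.50 (exact permutation p = 0.579). BMP8A, singled out after its values were seen, was at 0.606, 0.180, 0.542, 0.724 and 0.274 FPKM in the control pigs and at 0.887, 0.596, 0.884, 0.566 and 1.03 in the rpFSH pigs. RpFSH pigs 1, 3 and 5 lay above all controls, and the log2 fold change was 0.82 ± 0.42 (edgeR P = 0.0795, exact permutation p = 0.0476). BMP8A passed the unadjusted threshold with limma on log2 (FPKM + 1) and in edgeR without control pig 4. Its locus held few of the reads under its symbol, since 86.6% of those counts lay in 4 further loci without a strand. NODAL, known for embryonic patterning, GDF5, known for joint formation, and the activin subunit INHBE had log2 fold changes of -0.17, 0.13 and -0.27 (exact permutation p = 0.635, 0.706 and 0.952). Of the ligands that were not tested, LEFTY2, an antagonist of NODAL, had 0 counts in 10 of 10 pigs. INHBC, IFNG, GDF7, GDF6, BMP5 and TNF had a mean of at most 0.0721 FPKM, and each had 0 counts in at least 2 pigs.

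Among the receptors, TGFBR2 was the most abundant per assembled length and ACVR1B was the 1 of 10 tested receptors that passed the unadjusted threshold. ACVR1B, the type I receptor through which activins reach SMAD2 and SMAD3, lies on chromosome 5, 17314276 to 17350723, plus strand. Its FPKM was 2.31, 3.02, 1.76, 2.17 and 2.41 in control pigs 1 to 5 and 3.75, 2.00, 2.88, 2.86 and 6.08 in rpFSH pigs 1 to 5. RpFSH pigs 1 and 5 lay above all controls, and the other rpFSH pigs lay within their range. Controls averaged 2.34 ± 0.457 FPKM and rpFSH pigs 3.51 ± 1.56 (mean ± SD, n = 5 per group). ACVR1B was higher in the rpFSH treatment group by a log2 fold change of 0.65 ± 0.27 with a 95% interval from 0.055 to 1.25 (edgeR P = 0.0350, exact permutation p = 0.0794). The call held in 4 of 10 fits that left out 1 pig. It was lost without control pig 1, 3, 4 or 5 and without rpFSH pig 1 or 5, where the unadjusted P lay between 0.0583 and 0.104. Without rpFSH pig 5 the log2 fold change of ACVR1B was 0.37.

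The TGF-beta receptors are a pair, with TGFBR2 binding the ligand and recruiting the type I receptor TGFBR1. TGFBR2 (chromosome 13, 16784365 to 16876656, plus strand) was at 27.9, 37.4, 27.0, 26.4 and 37.8 FPKM in the control pigs and at 23.9, 22.0, 46.0, 47.0 and 44.3 in the rpFSH pigs. RpFSH pigs 3, 4 and 5 lay above all controls and rpFSH pigs 1 and 2 below all controls, with a log2 fold change of 0.30 ± 0.24 (edgeR P = 0.241, exact permutation p = 0.341). TGFBR1 (chromosome 1, 240842698 to 240918503, plus strand) was at 3.76, 3.66, 4.42, 3.47 and 2.86 FPKM in the control pigs and at 3.13, 6.32, 3.30, 3.51 and 3.77 in the rpFSH pigs. RpFSH pig 2 stood alone at the top and the other pigs overlapped, with a log2 fold change of 0.21 ± 0.23 (edgeR P = 0.370, exact permutation p = 0.563).

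The BMP receptors consist of BMPR2, the type II receptor, and the type I receptors BMPR1A, BMPR1B and ACVR1. BMPR2 (chromosome 15, 105970321 to 106139772, plus strand) was at 13.2, 18.3, 12.7, 12.4 and 17.0 FPKM in the control pigs and at 15.5, 15.9, 15.2, 16.6 and 15.5 in the rpFSH pigs. The rpFSH pigs were tightly grouped and lay within the range of the controls, whose highest pigs were pigs 2 and 5. For BMPR2 the log2 fold change was 0.17 ± 0.13 (edgeR P = 0.231, exact permutation p = 0.135), and without control pigs 2 and 5 it was 0.38 and passed the unadjusted threshold. BMPR1A (chromosome 14, 87743323 to 87900478, plus strand), known to be needed in granulosa cells for fertility, was at 5.62, 7.77, 3.86, 3.72 and 5.21 FPKM in the control pigs and at 2.91, 2.96, 5.01, 5.78 and 4.69 in the rpFSH pigs. Control pig 2 was the highest and the groups overlapped, with a log2 fold change of -0.22 ± 0.26 (edgeR P = 0.406, exact permutation p = 0.437). Without control pig 2 and rpFSH pig 1 the sign turned, to 0.087, which did not pass the threshold either.

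BMPR1B, whose variants raise ovulation rate in sheep (chromosome 8, 124527609 to 124841274, minus strand), varied the most among the tested receptors. Its FPKM was 1.57, 5.32, 1.13, 1.76 and 1.15 in the control pigs and 5.15, 1.70, 0.805, 2.06 and 1.21 in the rpFSH pigs. Control pig 2 and rpFSH pig 1 stood far above the others, and these were the pigs with the highest luteal sums given above. The cholesterol carrier STAR was at 532 FPKM in control pig 2, 448 in rpFSH pig 1 and 121 in rpFSH pig 4. In the other pigs this luteal marker lay between 1.52 and 5.67. CYP11A1, PTGFR and SCARB1 of the same list were also highest in control pig 2 and next highest in rpFSH pig 1. LHCGR was highest in rpFSH pig 1, at 7.32 FPKM, but at 2.74 in control pig 2, within the control range of 2.32 to 4.01. Of the 5 matched luteal genes, 0 passed the unadjusted threshold between the groups, with sums of 17.5 to 2724 among controls and 32.2 to 1422 among rpFSH pigs. The log2 fold change of BMPR1B was 0.051 ± 0.56 (edgeR P = 0.929, exact permutation p = 0.921) with all pigs and 0.13 without that pair, which did not pass the threshold either way. The sign was negative in limma and without some single pigs.

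ACVR1, the type I receptor also called ALK2 (chromosome 15, 64748764 to 64892153, minus strand), was at 4.95, 3.13, 4.81, 4.48 and 4.33 FPKM in the control pigs and at 3.40, 4.00, 5.08, 5.77 and 5.82 in the rpFSH pigs. RpFSH pigs 3, 4 and 5 lay above all controls and rpFSH pigs 1 and 2 within their range, with a log2 fold change of 0.22 ± 0.19 (edgeR P = 0.275, exact permutation p = 0.341). AMHR2, the type II receptor of AMH (chromosome 5, 18642823 to 18648848, plus strand), was at 3.07, 0.652, 2.94, 4.68 and 1.68 FPKM in the control pigs and at 6.67, 4.52, 3.00, 2.15 and 2.91 in the rpFSH pigs. Control pig 2 was the lowest and rpFSH pig 1 the highest, with a log2 fold change of 0.62 ± 0.48 (edgeR P = 0.225, exact permutation p = 0.198). The granulosa markers FSHR, CYP19A1, INHA and AMH were also lowest in control pig 2. FSHR was at 0.375 FPKM there and at 2.29 in rpFSH pig 1. Of the same list, NR5A2 was highest among the controls in control pig 2, at 23.9 FPKM, and GATM lay within their range, at 1.74. The summed granulosa markers (6 matched with AMH among them, 0 past the threshold) were 14.4 to 93.0 among controls and 12.5 to 178 among rpFSH pigs, and none of the 6 was at 0 counts. In the highest sum, that of rpFSH pig 1, NR5A2 made up 102 FPKM and INHA 68.7. The part of these markers in the AMHR2 values was not tested. The activin type II receptors ACVR2A and ACVR2B had log2 fold changes of -0.15 and -0.063 (exact permutation p = 0.119 and 0.794). ACVR1C, the NODAL receptor ALK7, was not tested and had counts in 3 of 10 pigs.

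The 4 co-receptors and membrane modulators did not pass the test. BAMBI, a pseudoreceptor without kinase domain that blocks type I receptors (chromosome 10, 40053341 to 40060319, plus strand), was at 3.07, 2.58, 2.68, 2.39 and 2.27 FPKM in the control pigs and at 1.45, 0.944, 3.81, 2.04 and 2.05 in the rpFSH pigs. Of the rpFSH pigs, 4 lay below all controls and rpFSH pig 3 above all of them. The log2 fold change of BAMBI was -0.26 ± 0.32 (edgeR P = 0.429, exact permutation p = 0.262), and it was -0.63 and passed the unadjusted threshold without rpFSH pig 3. The BMP co-receptors RGMA and HJV had log2 fold changes of 0.37 and 0.54, and their receptor NEO1, known for axon guidance, had 0.055 (exact permutation p = 0.254, 0.698 and 0.770).

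The extracellular antagonists and matrix regulators held the most abundant members and the member with the smallest P. LTBP1, which binds latent TGF-beta in the secretory pathway and anchors it to fibrillin in the matrix, lies on chromosome 3, 106300751 to 106725153, minus strand, in a locus joined with an Ensembl gene that has no symbol. Its FPKM was 34.7, 48.1, 28.3, 26.5 and 28.4 in control pigs 1 to 5 and 50.8, 42.4, 50.2, 41.2 and 56.0 in rpFSH pigs 1 to 5. All rpFSH pigs lay above 4 of the controls, and only control pig 2 reached into their range. Controls averaged 33.2 ± 8.88 FPKM and rpFSH pigs 48.1 ± 6.21 (mean ± SD, n = 5 per group). LTBP1 was higher in the rpFSH treatment group by a log2 fold change of 0.61 ± 0.19 with a 95% interval from 0.19 to 1.03, which is 1.52-fold (edgeR P = 0.00887, exact permutation p = 0.0238, adjusted p = 0.981). With 1 pig left out in turn, the unadjusted P stayed under the threshold in 10 of 10 fits, between 0.000329 and 0.0244, with log2 fold changes between 0.54 and 0.79. The summed stroma markers (6 genes with DCN among them, of which LUM was lower at an unadjusted P under 0.05) were 195 to 1031 among controls and 346 to 1319.8 among rpFSH pigs, with none at 0 counts, and their part in the LTBP1 values was not tested.

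THBS1, a matrix glycoprotein that can release active TGF-beta from its latent complex (chromosome 1, 131728784 to 131746115, minus strand), was singled out after its values were seen. It was at 149, 65.2, 194, 166 and 44.8 FPKM in the control pigs and at 106, 227, 179.9, 283 and 266 in the rpFSH pigs. RpFSH pigs 2, 4 and 5 lay above all controls, and control pigs 2 and 5 below all rpFSH pigs. THBS1 had a log2 fold change of 0.83 ± 0.43 with a 95% interval from -0.12 to 1.79 (edgeR P = 0.0810, exact permutation p = 0.103). THBS1 passed the unadjusted threshold with DESeq2 (P of 0.0499) and in edgeR without control pig 3 or without rpFSH pig 1. Without control pigs 2 and 5 its log2 fold change was 0.39 and did not pass.

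**Figure D3:**
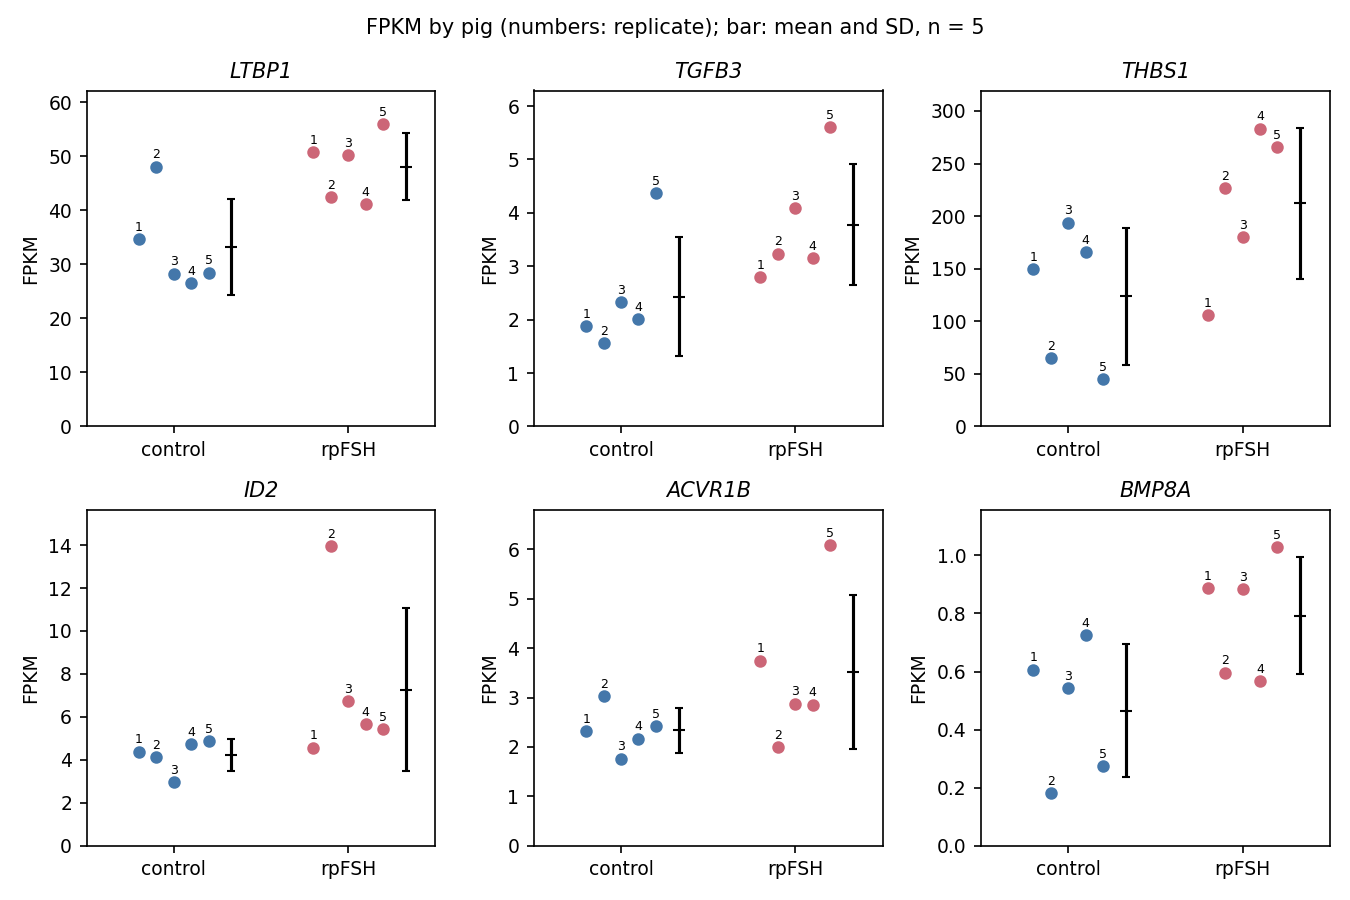
FPKM of 6 genes in each pig (points, with the replicate number above), with the mean and SD of each group of 5 (bars). For LTBP1 and ID2 the control group reaches 48.1 and 4.86 FPKM at most and lies under most of the rpFSH pigs, whereas THBS1, BMP8A, ACVR1B and the ligand TGFB3 overlap more.

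DCN, a collagen-binding proteoglycan that sequesters TGF-beta (chromosome 5, 91678354 to 91714268, plus strand), was at 134, 46.8, 95.3, 129.6 and 229 FPKM in the control pigs and at 96.3, 99.5, 138, 201 and 107 in the rpFSH pigs. The controls held both the lowest pig, control pig 2, and the highest, control pig 5, with a log2 fold change of 0.10 ± 0.37 (edgeR P = 0.798, exact permutation p = 0.675). FMOD, a related proteoglycan (chromosome 9, 64059853 to 64074106, minus strand) also singled out after its values were seen, was at 13.9, 7.20, 8.05, 17.4 and 74.2 FPKM in the control pigs and at 16.8, 16.5, 14.7, 24.7 and 27.3 in the rpFSH pigs. Control pig 5 stood far above all others. FMOD had a log2 fold change of -0.17 ± 0.58 (edgeR P = 0.776, exact permutation p = 0.635) with control pig 5 and 0.83 without it, where it passed the unadjusted threshold.

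GREM1, a secreted BMP antagonist known as a granulosa product (chromosome 1, 136617105 to 136629292, plus strand), was at 0.0465, 0.0001, 0.0509, 0.0111 and 1.11 FPKM in the control pigs and at 0.0565, 0.0541, 0.0452, 0.0001 and 0.151 in the rpFSH pigs, where 0.0001 is the lowest value the table gives and stands for 0 counts. Control pig 5 alone was above 1 FPKM, and control pig 2 and rpFSH pig 4 had 0 counts. Its log2 fold change was -1.84 ± 1.48 (edgeR P = 0.239, exact permutation p = 0.968), and without control pig 5 the sign turned, to 1.15, and did not pass the threshold. NOG, which encodes the antagonist noggin, was not tested. It had 0, 0, 4, 0 and 20 counts in control pigs 1 to 5 and 0, 4, 1, 4 and 4 in rpFSH pigs 1 to 5, with control pig 5 the highest. The antagonists CHRD and NBL1 had log2 fold changes of 0.14 and 0.051 (exact permutation p = 0.587 and 0.802).

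**Figure D4:**
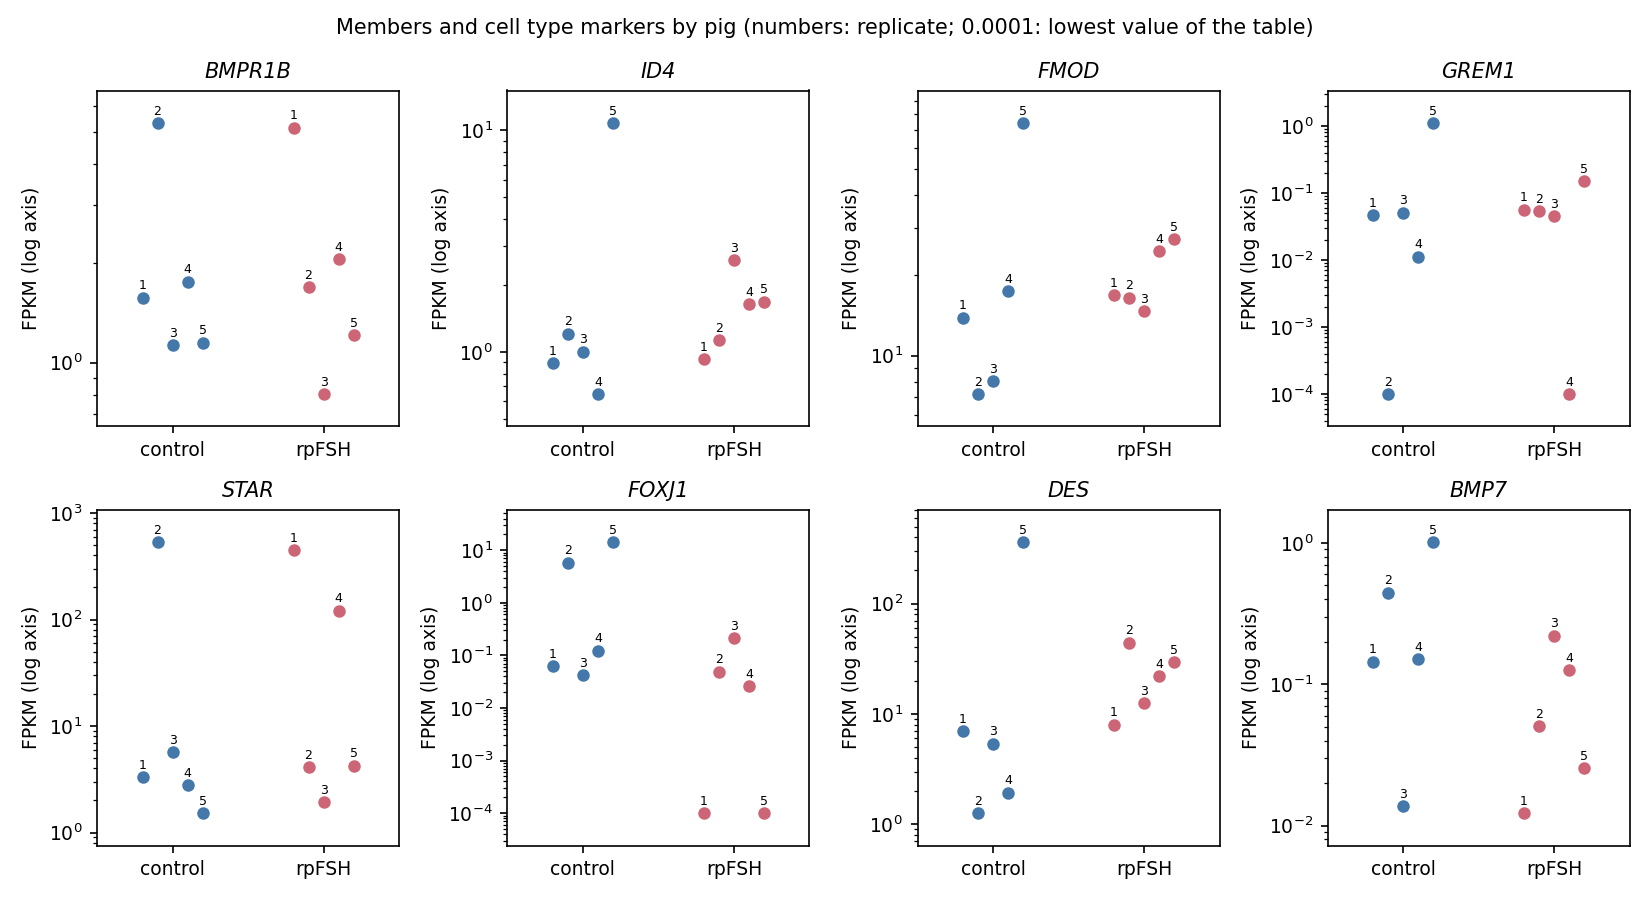
FPKM in each pig (points, log axis, with the replicate number above) of the members BMPR1B, ID4, FMOD, GREM1 and BMP7 and of the markers STAR (luteal), FOXJ1 (ciliated) and DES (smooth muscle). Control pig 2 and rpFSH pig 1 are highest for BMPR1B and STAR, and control pig 5 is highest for ID4, FMOD, GREM1, BMP7, FOXJ1 and DES, with DES at 360.2 FPKM.

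SMAD1 and SMAD5 varied little between pigs, with coefficients of variation of 13.9% and 15.8%, against 28.5% for SMAD9, and 0 of 5 receptor SMADs and anchors passed the test. SMAD1 (chromosome 8, 82907994 to 82988048, minus strand) was at 8.41, 5.82, 8.10, 6.42 and 7.04 FPKM in the control pigs and at 6.01, 7.03, 7.09, 8.84 and 7.05 in the rpFSH pigs, with nearly the same mean in both groups, 7.16 ± 1.10 and 7.20 ± 1.02. Its log2 fold change was 0.079 ± 0.15 with a 95% interval from -0.26 to 0.42 (edgeR P = 0.620, exact permutation p = 0.556). SMAD5 (chromosome 2, 138287431 to 138344762, plus strand) was at 6.001, 5.72, 6.61, 5.71 and 5.41 FPKM in the control pigs and at 4.49, 4.03, 5.15, 4.54 and 6.40 in the rpFSH pigs. RpFSH pigs 1 to 4 lay below all controls and rpFSH pig 5 within their range, with a log2 fold change of -0.19 ± 0.15 (edgeR P = 0.227, exact permutation p = 0.159). SMAD9 (chromosome 11, 12701511 to 12765790, minus strand) was at 2.92, 6.28, 2.69, 4.02 and 4.42 FPKM in the control pigs and at 5.29, 3.82, 6.01, 4.54 and 3.31 in the rpFSH pigs. The highest pig was control pig 2, and the log2 fold change was 0.25 ± 0.25 (edgeR P = 0.328, exact permutation p = 0.302), or 0.60 and past the unadjusted threshold without control pigs 2 and 5. ZFYVE9 (SARA) and ZFYVE16 (endofin), endosomal proteins that present SMADs to receptors, had log2 fold changes of 0.092 and -0.042 (exact permutation p = 0.476 and 0.738).

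The inhibitory SMADs are induced by the pathway they restrain, SMAD6 acting mainly on the BMP arm and SMAD7 on both arms. SMAD6 (chromosome 1, 164657086 to 164734703, plus strand) was at 0.927, 0.960, 0.820, 1.38 and 1.75 FPKM in the control pigs and at 1.27, 1.41, 2.41, 1.21 and 0.851 in the rpFSH pigs. RpFSH pig 3 was the highest and the groups overlapped, with a log2 fold change of 0.38 ± 0.31 (edgeR P = 0.240, exact permutation p = 0.341). SMAD7 (chromosome 1, 98510229 to 98542315, minus strand) was at 1.42, 1.26, 1.13, 0.922 and 1.80 FPKM in the control pigs and at 0.647, 1.03, 1.99, 1.45 and 1.02 in the rpFSH pigs. The lowest pig, pig 1, and the highest, pig 3, were both of the rpFSH treatment group, with a log2 fold change of -0.0059 ± 0.30 (edgeR P = 0.985, exact permutation p = 0.810). The ubiquitin ligases SMURF1 and SMURF2, which mark SMADs and receptors for degradation, had log2 fold changes of 0.26 and -0.031 (exact permutation p = 0.810 and 0.738).

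The nuclear co-regulators were TGIF1 and TGIF2, homeodomain repressors that bind SMADs, and SP1, a general transcription factor that acts with them. Of the 3, 0 passed the test, with log2 fold changes of 0.33, 0.16 and 0.32 (exact permutation p = 0.460, 0.508 and 0.0476). SP1 passed the unadjusted threshold in edgeR without control pig 4 and without rpFSH pig 4.

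The ID genes encode helix-loop-helix proteins that bind and inactivate E proteins, and they are the best known direct targets of BMP signalling. ID2 was the 1 of 5 tested targets that passed the unadjusted threshold. ID2 (chromosome 3, 127499410 to 127503297, minus strand) was at 4.38, 4.13, 2.97, 4.74 and 4.86 FPKM in control pigs 1 to 5 and at 4.56, 13.9, 6.74, 5.65 and 5.44 in rpFSH pigs 1 to 5. Of the rpFSH pigs, 4 lay above all controls and rpFSH pig 1 within their range, and rpFSH pig 2 was the highest by far. Controls averaged 4.21 ± 0.753 FPKM and rpFSH pigs 7.27 ± 3.81 (mean ± SD, n = 5 per group). ID2 was higher in the rpFSH treatment group by a log2 fold change of 0.88 ± 0.31 with a 95% interval from 0.19 to 1.57, which is 1.84-fold (edgeR P = 0.0173, exact permutation p = 0.0238, adjusted p = 0.981). In the 10 fits that left out 1 pig, the unadjusted P stayed under the threshold, between 0.00775 and 0.0422. Without rpFSH pig 2 the log2 fold change was 0.47, the lowest of these fits.

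ID1 (chromosome 17, 35316620 to 35322100, plus strand) was at 2.20, 2.11, 2.81, 1.58 and 3.59 FPKM in the control pigs and at 2.20, 2.06, 5.93, 2.66 and 2.24 in the rpFSH pigs. RpFSH pig 3 stood alone at the top and the others overlapped, with a log2 fold change of 0.38 ± 0.34 (edgeR P = 0.285, exact permutation p = 0.492). ID3 (chromosome 6, 81422546 to 81424169, minus strand) was at 20.1, 18.0, 25.9, 25.0 and 18.4 FPKM in the control pigs and at 17.4, 21.2, 47.4, 29.7 and 19.4 in the rpFSH pigs. RpFSH pig 3 was again the highest, and the log2 fold change was 0.40 ± 0.28 (edgeR P = 0.185, exact permutation p = 0.349). ID4 (chromosome 7, 15281444 to 15287737, plus strand) was at 0.888, 1.21, 1.00, 0.648 and 10.8 FPKM in the control pigs and at 0.927, 1.13, 2.60, 1.65 and 1.69 in the rpFSH pigs. Control pig 5 stood far above all other pigs. ID4 had a log2 fold change of -0.74 ± 0.75 (edgeR P = 0.349, exact permutation p = 0.952) with that pig and 0.83 without it, where it passed the unadjusted threshold. The same pig had the highest levels of FMOD, GREM1, BMP7 and NOG, with all 4 smooth muscle and all 8 ciliated epithelium markers highest in it as well. Of the 4 smooth muscle markers, 0 passed the unadjusted threshold between the groups and none was at 0 counts, with sums of 49.7 to 1209.8 among controls and 122 to 337 among rpFSH pigs, and their part in these values was not tested. HAMP, the iron hormone and a BMP target in liver, had a log2 fold change of -0.043 for its joined locus (exact permutation p = 0.556).

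In the non-SMAD arm, the kinases, phosphatase subunits and GTPase that the pathway map draws beside the SMADs, 0 of 10 members passed the test. The log2 fold changes ran from -0.13 for PPP2CA to 0.25 for MAPK3, the kinase ERK1. The smallest P was that of RPS6KB1, the S6 kinase (edgeR P = 0.132, exact permutation p = 0.0952), whose log2 fold change was 0.22 ± 0.13. RHOA, ROCK1, RPS6KB2, PPP2CB, PPP2R1A and PPP2R1B had log2 fold changes between 0.0053 and 0.091.

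The core genes that the selection left out because they also carry the cell cycle pathway were counted separately. Of TGFB1, TGFB2, TGFB3, SMAD2, SMAD3 and SMAD4, 1 of 6 was higher and 0 were lower at an unadjusted P under 0.05. TGFB3, a TGF-beta ligand (chromosome 7, 99133511 to 99162221, minus strand), was at 1.88, 1.56, 2.33, 2.01 and 4.37 FPKM in the control pigs and at 2.79, 3.24, 4.09, 3.15 and 5.61 in the rpFSH pigs. All rpFSH pigs lay above 4 of the controls and control pig 5 reached into their range. TGFB3 was higher in the rpFSH treatment group by a log2 fold change of 0.72 ± 0.29 (edgeR P = 0.0310, exact permutation p = 0.0476, adjusted p = 1.00). The call held in 4 of 10 fits that left out 1 pig and was lost without control pig 1, 2, 3 or 4 and without rpFSH pig 3 or 5, where the unadjusted P lay between 0.0523 and 0.0884. TGFB1 and TGFB2 had log2 fold changes of 0.17 and 0.081, and SMAD2, SMAD3 and SMAD4 had -0.043, -0.023 and -0.025 (exact permutation p = 0.429, 0.706, 0.794, 0.810 and 0.992). Of 23 further genes of the pathway that do not carry the KEGG term, such as the co-receptors ENG and TGFBR3, the latent TGF-beta binding proteins LTBP2, LTBP3 and LTBP4 and the TGF-beta target TGFBI, 22 were tested. Of these, 0 passed the unadjusted threshold, and their log2 fold changes ran from -1.14 to 1.88 with a median of 0.071.

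Whether the target and inhibitory genes varied together over the pigs was examined in 6 pairs, with log2 CPM and permutation tests. ID1 and SMAD7 had the highest r, at 0.740 (n = 10, permutation p = 0.0178, 0.107 after Benjamini-Hochberg adjustment over 6 pairs), with a Spearman rho of 0.624 (permutation p = 0.0592, adjusted 0.355). ID1 and ID3 had an r of 0.680 (permutation p = 0.0547, adjusted 0.109) and a rho of 0.321 (permutation p = 0.367). ID1 and SMAD6 had an r of 0.635 (permutation p = 0.0541, adjusted 0.109) and a rho of 0.261 (permutation p = 0.471). For ID1 with ID2, ID2 with ID3 and SMAD6 with SMAD7, r was 0.129, 0.267 and 0.436 and rho was 0.285, 0.430 and 0.321 (permutation p between 0.208 and 0.663). The adjusted p of r over these 6 pairs was at least 0.107. Without control pig 5 and rpFSH pig 3, the pigs farthest from the median of ID1, r was 0.369 for ID1 with SMAD7, 0.330 for ID1 with ID3 and -0.411 for ID1 with SMAD6. These relations did not hold without those pigs, whose removal also narrows the range of ID1. Without rpFSH pig 3 alone r of ID1 with SMAD7 was 0.568, and without control pig 5 alone it was 0.720. With each group centred on its own mean, r was 0.804 for ID1 with SMAD7 (permutation p = 0.00441, adjusted 0.0265). That p is likely too small, since the shuffles ran over all 10 pigs and did not allow for the centring.

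**Figure D5:**
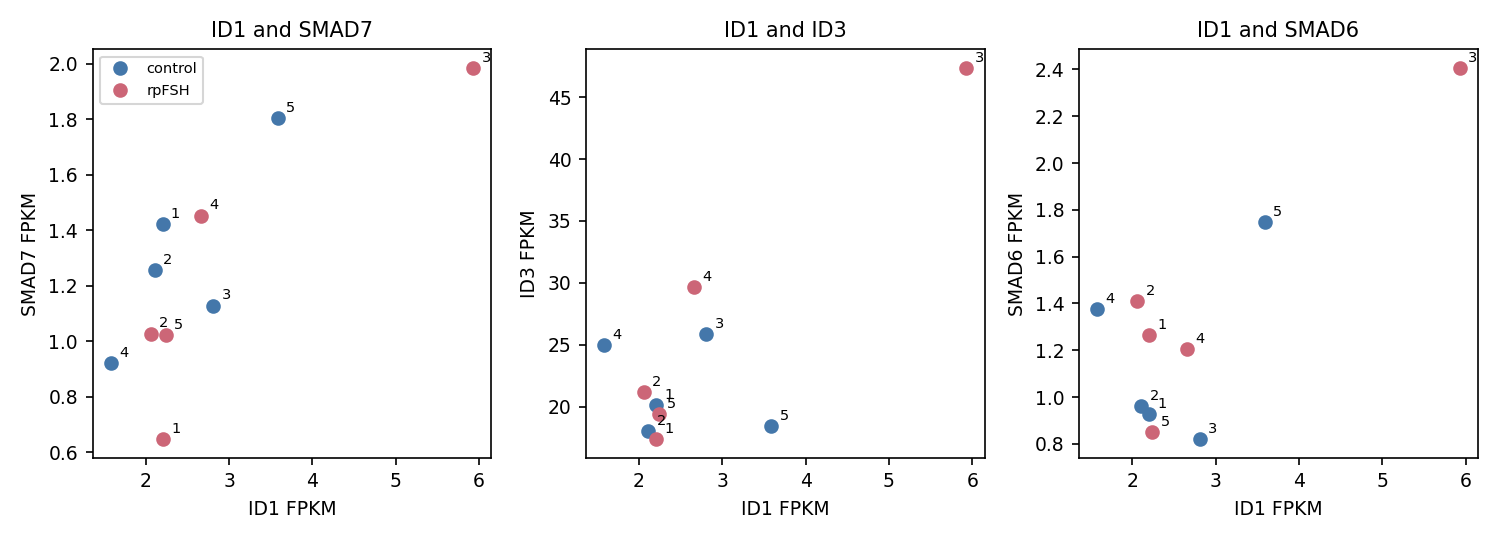
SMAD7, ID3 and SMAD6 (vertical axes) against ID1 (horizontal axes), in FPKM for each of 10 pigs, with the replicate number beside each point and the group by colour. RpFSH pig 3, at 5.93 FPKM of ID1, lies apart from the others in all panels.

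The members differed in how much they varied from pig to pig. The coefficient of variation of FPKM over the 10 pigs had a median of 30.0% over the tested members and 31.6% over all tested loci. By role, its median was 51.1% for the ligands, 45.5% for the targets and 41.8% for the extracellular antagonists and matrix regulators, against 13.9% for the receptor SMADs and anchors and 14.7% for the non-SMAD arm. GREM1, BMP7 and ID4 varied the most, with coefficients of 222%, 139% and 135%. HAMP in its joined locus, the anchor ZFYVE9 and the kinase RPS6KB2 varied the least, with 8.57%, 10.4% and 10.8%.

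The members share annotation and position beyond the pathway that chose them. The table assigns 27 of the 69 also to cytokine-cytokine receptor interaction, 24 to Hippo signaling and 21 to the pathway of stem cell pluripotency. The activin subunits INHBC and INHBE lie 4704 bp apart and SP1 and AMHR2 8081 bp apart on chromosome 5, BMP8A and BMP8B 206544 bp apart on chromosome 6, and ACVR1 and ACVR1C 219657 bp apart on chromosome 15. For 32 members the table holds further loci under the same symbol that it does not type as protein-coding, 101 in all. Of these loci, 29 lay on the strand of the member, 55 on the opposite strand and 17 had no strand, and together they held 35.1% of the counts under these 32 symbols. Among the members described pig by pig, the share was 92.5% for SMAD6, 86.6% for BMP8A, 69.4% for BMP6, 66.7% for SMAD1, 66.0% for BMPR1A, 57.2% for SMAD7, 56.9% for ACVR1 and 46.3% for BMPR2. It was 15.7% for LTBP1 and at most 28.2% for the others with such loci, AMH, BMP2, TGFBR2 and BMPR1B. The values of these members therefore cover part of the reads given to their symbols. For ACVR1, LTBP1, BMPR1B and TGFBR2 all such loci lay on the opposite strand, and for BMPR2 6 of 10 did. Whether the reads of such loci came from the member's own transcripts was not tested.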

How the data were processed

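RNA of 10 gilt ovaries, 5 control and 5 treated with rpFSH, was sequenced with 1 library per pig. The authors deposited 1 table of assembled loci with counts and FPKM for each pig. Their processing notes name Bowtie 0.12.2, HISAT2 2.0, StringTie 1.3.0 and the build Sscrofa11.1. How the counts were made is not given in the sources used here, and the labels name poly(A) selection where the methods name removal of ribosomal RNA. The deposited counts were tested with edgeR 4.0.16 (quasi-likelihood, TMM, two-sided, R 4.3.3) over 15170 protein-coding loci with a mean of at least 0.1 FPKM, with Benjamini-Hochberg adjustment. Up to 75114003 counts per pig were available, and 3 counts, taken as a floor of detection, were 0.0399 to 0.0462 CPM. Values of 0 counts were not raised to that floor, since log2 CPM used a prior count of 2. The floor covers counting error only. The p-values of the group tests set the difference between groups against the spread between pigs. The deposited FPKM were used for levels and in limma 3.58.1 on log2 (FPKM + 1). Single values were compared by exact permutation over 252 assignments of log2 CPM, and correlations by 100000 resamples (Python 3.11.15, scipy 1.17.1, numpy 2.4.6, pandas 2.3.3, matplotlib 3.10.9). Alternatives were DESeq2 1.42.0, a minimum of 1 FPKM, no minimum, a pseudocount of 0.1, a block on the replicate number, and pigs left out singly or in pairs. Pigs sharing a number did not deviate together (r from -0.294 to -0.0260). 0 libraries were identical and 0 columns were left unused.

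The members and gene lists were chosen with earlier results of these data known. Per-pig values were given for 25 members fixed by name and for those with an unadjusted P under 0.05, and other genes described pig by pig were chosen after their values were seen. Loci that the table does not type as protein-coding were counted but not tested. A few members are not reported here by name. The authors' own fold changes and p-values were not used.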

Additional observations from a re-analysis of the deposited data

Results flagged for a closer look

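In 7 of 116 groups of 5 pigs (58 members in each of the control and rpFSH groups), 1 pig lay far from the others on the log2 CPM scale, with a gap over 0.71 of the group's range. Chance gives such a gap in about 1 in 20 groups. Among the ligands, INHBE, in its locus joined with GLI1, was lowest in control pig 2, at 0.0869 FPKM with the next control at 1.24. Among the receptors, TGFBR1 was highest in rpFSH pig 2, at 6.32 FPKM with the next pig of its group at 3.77. The targets gave 2 such groups. ID1 was highest in rpFSH pig 3, at 5.93 FPKM with the next at 2.66, and ID4 was highest in control pig 5, at 10.8 FPKM with the next at 1.21. TGIF2, a nuclear repressor, was highest in rpFSH pig 2, at 11.5 FPKM with the next at 7.45. In the non-SMAD arm, rpFSH pig 1 was highest for the locus of MAPK3, at 18.0 FPKM with the next at 8.77, and lowest for the phosphatase subunit PPP2CB, at 3.53 FPKM with the next at 4.62.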

How the results depend on the processing

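The count of members higher in the rpFSH treatment group was 7 without control pigs 2 and 5 and 2 to 4 with 1 pig left out. The count of lower members was 1 with DESeq2 and 0 to 2 with 1 pig left out. LTBP1 and ID2 kept their unadjusted calls whichever pig was left out, and ACVR1B lost its call in 6 of 10 such fits. The cause was not tested. The 11 members under the 0.1 FPKM minimum were not tested. With a block on the replicate number, which the labels share between the groups but which does not pair the pigs, 2 members had an unadjusted P under 0.05 and the log2 fold change of ID4 was 0.16.

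The signs of these values, none of them called in the comparison, turned. Without control pigs 2 and 5 the log2 fold changes were 0.76 for GREM1, 0.17 for SMAD7, -0.012 for SMAD1, 0.034 for BMPR1A and 0.99 for ID4. Without control pig 2 and rpFSH pig 1 they were -0.025 for DCN, 0.15 for SMAD7 and 0.087 for BMPR1A. With limma the log2 fold change of BMPR1B was -0.0039 on log2 (FPKM + 1) and -0.020 on log2 (FPKM + 0.1). With 1 pig left out, the ranges were -0.12 to 0.39 for DCN, -2.46 to 1.15 for GREM1, -0.26 to 0.16 for SMAD7, -0.22 to 0.12 for AMH, -0.12 to 0.62 for BMP4, -0.51 to 0.71 for BMPR1B, -0.036 to 0.31 for TGFBR1, -0.037 to 0.53 for ID1 and -1.03 to 0.83 for ID4.

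The r of ID1 with ID2 was -0.0741 with group means removed, -0.0948 without the 2 pigs farthest from the median of ID1 and -0.137 to 0.471 with 1 pig left out. The r of ID1 with SMAD6 was -0.411 without those 2 pigs, and that of ID1 with ID3 was -0.0144 to 0.827 with 1 pig left out. The r of ID1 with SMAD7 passed the adjusted threshold at 0.773 on log2 (FPKM + 1) and at 0.885 without control pig 2 and rpFSH pig 1. With 1 pig left out it was 0.568 to 0.877, and passed at 0.877, without rpFSH pig 1 (adjusted permutation p = 0.00989). It also passed at 0.804 with group means removed, where the shuffles did not allow for the centring. Of 716 values under an alternative, 656 were classed as unchanged. For fold changes and correlations this meant the same direction and the same side of the threshold. For counts of members it allowed small shifts, such as 2 or 4 higher members instead of 3.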
